A study of Homo sapiens with 6 samples.

Results

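The TRIM genes are the symbols made of TRIM, a number and at most 1 further letter, and 73 of the 19871 gene symbols in the mRNA tables met this rule, with 304 transcripts. Counts of all transcripts of a symbol were summed, and fold changes were computed for the 43 TRIM genes whose mean over the 3 groups was at least 50, out of 11907 genes of all kinds that passed the same minimum. Another 16 TRIM genes were above 0 with a mean under 50, and 14 were listed at 0 in every group. The cells were HCT116, an established colorectal cancer line grown in culture, in 3 groups with 2 libraries each. NC is the negative control, GAS5 received a plasmid carrying the long noncoding RNA GAS5, and siYAP received an siRNA against YAP, the transcriptional coactivator at the end of the Hippo pathway. The labels do not state what NC received, which YAP siRNA was used or how long after transfection RNA was taken, and all 3 groups stand under the siRNA tag. As no source says whether NC received an empty plasmid, the effect of GAS5 and that of plasmid transfection cannot be told apart here. The study asked how GAS5 acts on YAP signalling, and the comparisons with NC give the TRIM genes' share of each response.

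The tables held 1 mean per group and no value per library. The spread between libraries could therefore not be measured, no test was possible, and a gene is said to have risen or fallen only where its sum differed by at least 2-fold. Depth was 27206123 summed mean counts in NC against 25521577 in GAS5 and 26298036 in siYAP. All counts below are scaled to NC, and intervals on fold changes are 95% Wilson intervals on the counts behind the means, which cover counting error only. YAP1, the siRNA target, had 3480 scaled counts in NC against 2899 in GAS5 and 1547 in siYAP, a log2 fold change of -1.17 in siYAP. The GAS5 transcript itself was not analysed here, so the GAS5 label has no such check. The 8 epithelial markers summed to 3375, 3811 and 4492 FPKM in NC, GAS5 and siYAP, most of it from keratins, with EPCAM at 147, 136 and 134 FPKM. CDX2 was low at 3.52, 4.20 and 4.33 FPKM, CLDN4 differed between the groups at 95.8, 82.0 and 163 FPKM, and VIL1 was at or near 0 counts. Markers of leukocytes summed to 0.15, 0.82 and 0.14 FPKM, with PTPRC at 0 and most of the GAS5 value from CD14. Fibroblast markers summed to 2.22, 3.36 and 2.98 FPKM, nearly all of it COL1A1, with DCN at 0, and endothelial markers to 0.05, 0.07 and 0.03 FPKM. In bulk RNA, fewer cells expressing a gene and less RNA per cell cannot be told apart.

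Tripartite motif proteins share an N-terminal array of a RING finger, B-box zinc fingers and a coiled coil, and differ in the C-terminal domain that picks their targets. The RING finger makes most of them E3 ubiquitin ligases, enzymes that pass ubiquitin from an E2 enzyme to a target protein. TRIM14, TRIM16, TRIM29, TRIM44 and TRIM66 lack the RING finger, so the family name covers more than RING finger proteins. Many members with a C-terminal PRY-SPRY domain act in defence against viruses, either by binding viral parts directly or by modifying sensors such as RIG-I, and the genes of several are induced by interferon. Another branch, with a PHD finger and a bromodomain, acts in the nucleus on transcription. The largest genomic group of TRIM genes was on chromosome 11, with 19 of the 73, of which 8 passed the minimum.

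An interferon-stimulated response element was searched as GAAA, any 2 bases and another GAAA on both strands in RefSeq promoter windows of GRCh38.p14, each with 250 bases before and 50 after the start of transcription. Of the 73 TRIM genes, 56 had a window, and 10 of these (17.9%) held the letters, against 4.38% of all 27305 genes with a window. By window rather than by gene, the share was 3.57% over all promoters. Of the 10 TRIM genes listed as interferon-linked, 9 had a window and 6 held the letters (66.7%). The 5 of these that passed the minimum follow, because their counts were compared with NC, each as 30 bases of the gene's own strand with the matching letters in capitals.
TRIM14: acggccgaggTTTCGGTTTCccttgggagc
TRIM21: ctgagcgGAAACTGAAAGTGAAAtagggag
TRIM34: gccccaaaaaTTTCACTTTCatttctcagg
TRIM5: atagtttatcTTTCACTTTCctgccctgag
TRIM26: cgcctgaTTTCAGTTTCCATTTCgctgccc
The TRIM14 stretch is chr9:98119229-98119258 on the minus strand, with the match beginning at position -26 from the RefSeq start. In TRIM21, at chr11:4393663-4393692 on the minus strand, 2 overlapping matches begin at position 18 after the start. The TRIM34 stretch is chr11:5624901-5624930 on the plus strand (position -90), the TRIM5 stretch chr11:5685082-5685111 on the minus strand (position -27) and the TRIM26 stretch chr6:30213578-30213607 on the minus strand (position -194, 2 overlapping matches). The same letters stood in the windows of 3 genes outside the list that also passed the minimum, shown for contrast.
TRIM44: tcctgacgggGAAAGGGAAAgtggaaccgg
TRIM2: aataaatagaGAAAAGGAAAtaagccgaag
TRIM16: acagaggtaaGAAATAGAAAtaaagggtcc
These lie at chr11:35662730-35662759 on the plus strand (position -35), chr4:153151936-153151965 on the plus strand (position -217) and chr17:15683012-15683041 on the minus strand (position -80). The most abundant listed transcript of TRIM2 begins 52303 bases after the start of that window's form, and that of TRIM16 begins at -1349 from the RefSeq start. A match describes the letters only and is not evidence of binding.

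Among levels per length, TRIM28 stood far above the other TRIM genes in every group. TRIM28, also known as KAP1, is the corepressor that KRAB zinc finger proteins bring to chromatin. Its summed FPKM was 358 in NC against 437 in GAS5 and 382 in siYAP, which was 41.2%, 44.1% and 41.6% of the FPKM of all TRIM genes together. TRIM25 came second at 49.6, 69.2 and 63.9 FPKM, so TRIM28 exceeded it 7.22, 6.31 and 5.98 times. TRIM47 (39.8 FPKM in NC), TRIM8 (35.8) and TRIM27 (29.7) followed in the control. The order of these 3 genes was not kept, since TRIM8 stood above TRIM47 in siYAP (48.7 against 46.8 FPKM) and below it in GAS5 (31.3 against 37.3 FPKM). The median of the 43 was 8.63 FPKM in NC against 8.32 in GAS5 and 8.57 in siYAP, with 20, 21 and 19 genes at 10 FPKM or more. TRIM14 and TRIM21, at 10.8 and 10.7 FPKM in NC, stood at 25.8 and 24.6 FPKM in GAS5 and at 8.70 and 7.87 FPKM in siYAP. With no spread between libraries, it cannot be said which neighbours in this order differ.

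**Figure D1:**
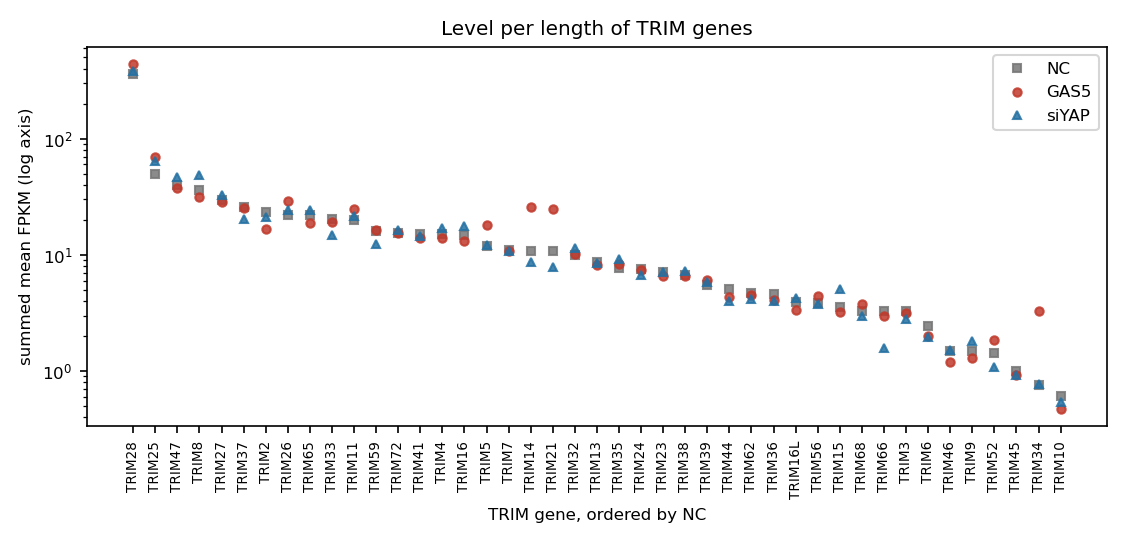
Summed mean FPKM (log axis) of the 43 TRIM genes that passed the minimum of 50 counts, ordered from left to right by NC; squares are NC, circles GAS5 and triangles siYAP, each 1 mean of 2 libraries. TRIM28 lies above 350 FPKM in every group, and the GAS5 points of TRIM14, TRIM21, TRIM5 and TRIM34 stand above the other groups.

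In GAS5, 3 of the 43 TRIM genes rose by 2-fold or more (6.98%), against 0.798% of all genes, and all 3 are on the interferon-linked list. TRIM34, TRIM14 and TRIM21 were these genes, and TRIM5 and TRIM25 were the other two past a log2 fold change of 0.5. No TRIM gene fell by 2-fold, against 0.269% of all genes. At the smaller size of 0.5 on the log2 scale, 5 TRIM genes were higher (11.6%, all genes 3.66%) and 0 lower (all genes 3.4%). The list of interferon-linked genes was drawn up from general knowledge, with earlier results of these data known, so its counts are a description.

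TRIM34, a PRY-SPRY relative of TRIM5 at chr11:5619764-5644398, had 60.9 scaled counts in NC against 211 in GAS5 and 50.9 in siYAP. GAS5 stood highest and the other groups close together, with a log2 fold change of 1.76 (interval 1.50 to 2.09) in GAS5 and -0.25 (-0.65 to 0.12) in siYAP. Only 3.4% of the 50-base stretches of its most abundant listed transcript occur in no other gene, since TRIM34 shares its exons with the read-through gene TRIM6-TRIM34, which had 11.5, 26.8 and 23.7 scaled counts. Summed with that gene, the GAS5 value was 1.69 and the siYAP value 0.04, so no direction is given for siYAP.

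TRIM14 has no RING finger and docks at MAVS, the mitochondrial adaptor of RIG-I signalling. Its gene is at chr9:98069275-98119212 on the minus strand. Scaled counts were 1224 in NC against 2939 in GAS5 and 1019 in siYAP. GAS5 was high and siYAP slightly under NC, with log2 fold changes of 1.26 (1.20 to 1.33) and -0.26 (-0.35 to -0.18). TRIM21, the cytosolic antibody receptor that marks antibody-coated virus for the proteasome, lies at chr11:4384897-4393696 on the minus strand. It had 571 scaled counts in NC against 1329 in GAS5 and 435 in siYAP. The order of the groups was that of TRIM14, with log2 fold changes of 1.22 (1.12 to 1.32) in GAS5 and -0.39 (-0.52 to -0.26) in siYAP. Nearly all 50-base stretches of the most abundant transcript of TRIM14, and all of those of TRIM21, occur in no other gene (100% when rounded). Among the 11907 genes ordered by their fold change in GAS5, TRIM34 was at rank 32, TRIM14 at 51 and TRIM21 at 56 from the top.

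TRIM5, which binds the capsid of incoming retroviruses, had 966 scaled counts in NC against 1504 in GAS5 and 1039 in siYAP. That is a log2 fold change of 0.64 (0.55 to 0.72) in GAS5 and 0.10 (0.01 to 0.20) in siYAP, and its gene at chr11:5663557-5938619 on the minus strand spans TRIM22 on the other strand. TRIM25, the ligase that activates RIG-I and that is itself a carrier of ISG15, had 6595 scaled counts in NC against 9414 in GAS5 and 9020 in siYAP. Both treated groups were above NC, at 0.51 (0.48 to 0.55) and 0.45 (0.42 to 0.48) on the log2 scale, and the direct difference between them was 0.06. TRIM26, which acts in the same signalling, had 2029, 2788 and 2159 scaled counts, a log2 fold change of 0.46 in GAS5 and 0.09 in siYAP. TRIM56, a ligase tied to the STING pathway, had 1075, 1326 and 987 scaled counts, a log2 fold change of 0.30 in GAS5 and -0.12 in siYAP. TRIM38, which restrains Toll-like receptor signalling, had 1751, 1730 and 1972 scaled counts, a log2 fold change of -0.02 in GAS5 and 0.17 in siYAP. Of the 8, TRIM38 alone had a GAS5 value not above 0 by gene sums, while with Ensembl transcripts alone TRIM56 stood at -1.10.

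TRIM22 and TRIM69, both antiviral and interferon-induced in other cells, completed the list of 10 but stayed under the minimum. TRIM22 had 23.3, 29.3 and 17.0 scaled counts and TRIM69 had 13.8, 16.2 and 4.42 in NC, GAS5 and siYAP. Over the 8 that passed, the median log2 fold change was 0.58 in GAS5, beside -0.01 over all genes. Values above 0 were held by 7 of them, against 49.1% of all genes. In siYAP the median was -0.02, beside 0.01 over all genes, and 4 were above 0 (all genes 51.0%). The summed FPKM of all 10 was 118 in NC against 183 in GAS5 and 130 in siYAP. CD14, which held most of the leukocyte markers' signal in GAS5, had 4.5, 40.6 and 3.21 scaled counts, under the minimum of 50. CD14 was highest in GAS5 and its part in the result was not tested, while PTPRC was at 0 in every group.

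**Figure D2:**
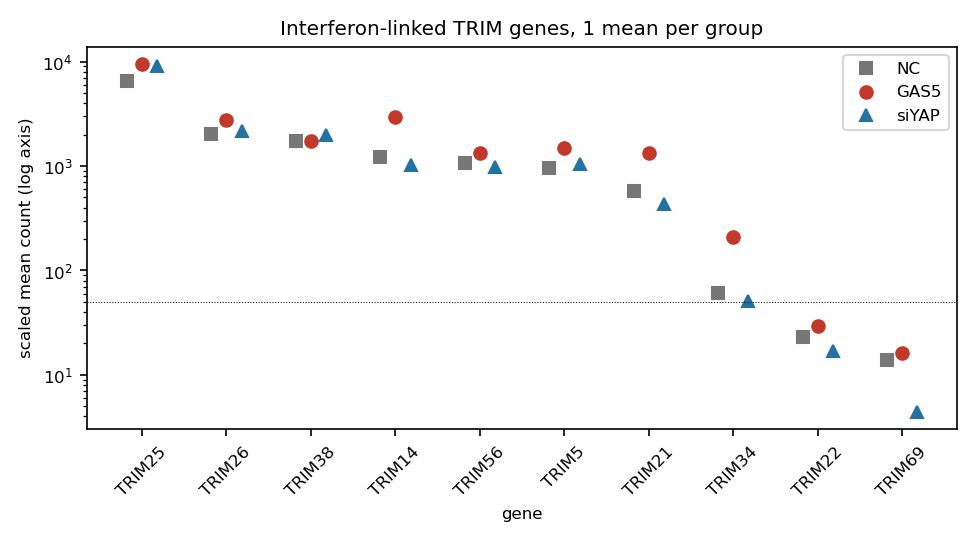
Scaled mean counts (log axis) of the 10 interferon-linked TRIM genes, ordered by NC; squares are NC, circles GAS5 and triangles siYAP, each 1 mean of 2 libraries, and the dotted line marks 50 counts. The GAS5 points of TRIM14, TRIM21 and TRIM34 stand more than 2-fold above NC, while TRIM22 and TRIM69 lie under the line in every group.

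Outside the interferon-linked list, no TRIM gene reached 0.5 on the log2 scale in GAS5 in either direction. Over all genes, 3.66% were higher and 3.4% lower by that much. The 35 other genes had a median of -0.04 and a range from -0.46 to 0.39. TRIM2, a ligase of neurons with NHL repeats, had 3057 scaled counts in NC against 2218 in GAS5 and 2922 in siYAP and held the lowest value, -0.46 (-0.52 to -0.41). TRIM52 held the highest, with 138, 182 and 108 scaled counts and a log2 fold change of 0.39 (0.17 to 0.63). Both were named after their values were seen. Over all 43, 15 had a value above 0 (34.9%), beside 49.1% of all genes, and the median was -0.03. The median over all genes was -0.01, so the high values of a few members stood beside values mostly close to 0. No direction is read from the signs of the latter.

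The presence of the response element letters can be set beside these values. Among the 8 genes that passed and held them, 3 rose by 2-fold in GAS5 (all genes 0.798%). On the log2 scale, 4 of the 8 reached 0.5 (all genes 3.66%). The median of the 8 in GAS5 was 0.55, with a range from -0.46 to 1.76. TRIM5, TRIM14, TRIM21, TRIM26 and TRIM34 of these are on the interferon-linked list, so this split is not separate from that list. Of the 25 that passed without the letters, 0 rose by 2-fold, 1 reached 0.5 (TRIM25, all genes 3.66%), and the median was -0.03. TRIM2, TRIM16 and TRIM44 held the letters printed above and had values of -0.46, -0.13 and -0.22. The other 10 genes that passed (TRIM4, TRIM8, TRIM11, TRIM13, TRIM16L, TRIM24, TRIM27, TRIM28, TRIM35 and TRIM45) were without a window in the table. The letters GGAATG, the core bound by TEAD factors, the partners of YAP, were searched in the same windows on both strands. They stood in 16 of 56 TRIM genes (28.6%) and in 16.7% of all genes. In siYAP the 7 that passed and held them had a median of -0.06 and the 26 without them one of -0.03. In TRIM36 and TRIM7 the window with GGAATG was not the one nearest the start of the most abundant listed transcript. That transcript begins 10333 bases after the start of that window's form in TRIM36 and at -832 from it in TRIM7.

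In siYAP, 0 of the 43 TRIM genes rose by 2-fold (all genes 0.344%) and 0 fell (all genes 0.462%). The median log2 fold change was 0.02, with 24 values above 0 (55.8%, all genes 51.0%), and the range was from -0.57 to 0.56. At 0.5 on the log2 scale, 1 gene was higher (2.33%, all genes 5.23%) and 1 lower (2.33%, all genes 6.16%). TRIM15, a PRY-SPRY protein of focal adhesions at chr6:30163206-30172696, was the higher one, with 219 scaled counts in NC against 200.2 in GAS5 and 323 in siYAP. Its log2 fold change was 0.56 (0.38 to 0.74) in siYAP and -0.13 in GAS5. TRIM8, a ligase of cytokine and NF-kappaB signalling, came next with 2778, 2458 and 3892 scaled counts, or 0.49 (0.44 to 0.54) in siYAP and -0.18 in GAS5. TRIM47 had 1837, 1794 and 2281 scaled counts and TRIM27, a ligase first known from a fusion with the RET kinase, had 2440, 2373 and 2802. Their log2 fold changes in siYAP were 0.31 and 0.20.

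TRIM66 held the lowest value in siYAP. This PHD-bromodomain protein without a RING finger lies at chr11:8612037-8682694 on the minus strand and had 527 scaled counts in NC against 512 in GAS5 and 355 in siYAP. NC and GAS5 were alike in level, and the log2 fold change in siYAP was -0.57 (-0.71 to -0.43), at rank 526 of 11907 from the lowest. As a ratio of summed FPKM it was -1.06, past 2-fold, beside the shift between its transcripts given further on. TRIM33, a partner of SMAD proteins, stood next at 2631, 2370 and 1914 scaled counts, with -0.15 in GAS5 and -0.46 (-0.52 to -0.40) in siYAP. TRIM24, a cofactor of nuclear receptors, had 874, 867 and 809 scaled counts, with -0.01 and -0.11. TRIM28, the last of the 4 PHD-bromodomain genes, had 25323, 31705 and 28241 scaled counts, with 0.32 (0.31 to 0.34) in GAS5 and 0.16 (0.14 to 0.17) in siYAP. The median of the 4 was -0.03 in GAS5 and -0.29 in siYAP, and 0 of them rose or fell by 2-fold in either group. Over all genes, 0.798% rose and 0.269% fell in GAS5, and 0.344% rose and 0.462% fell in siYAP.

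**Figure D3:**
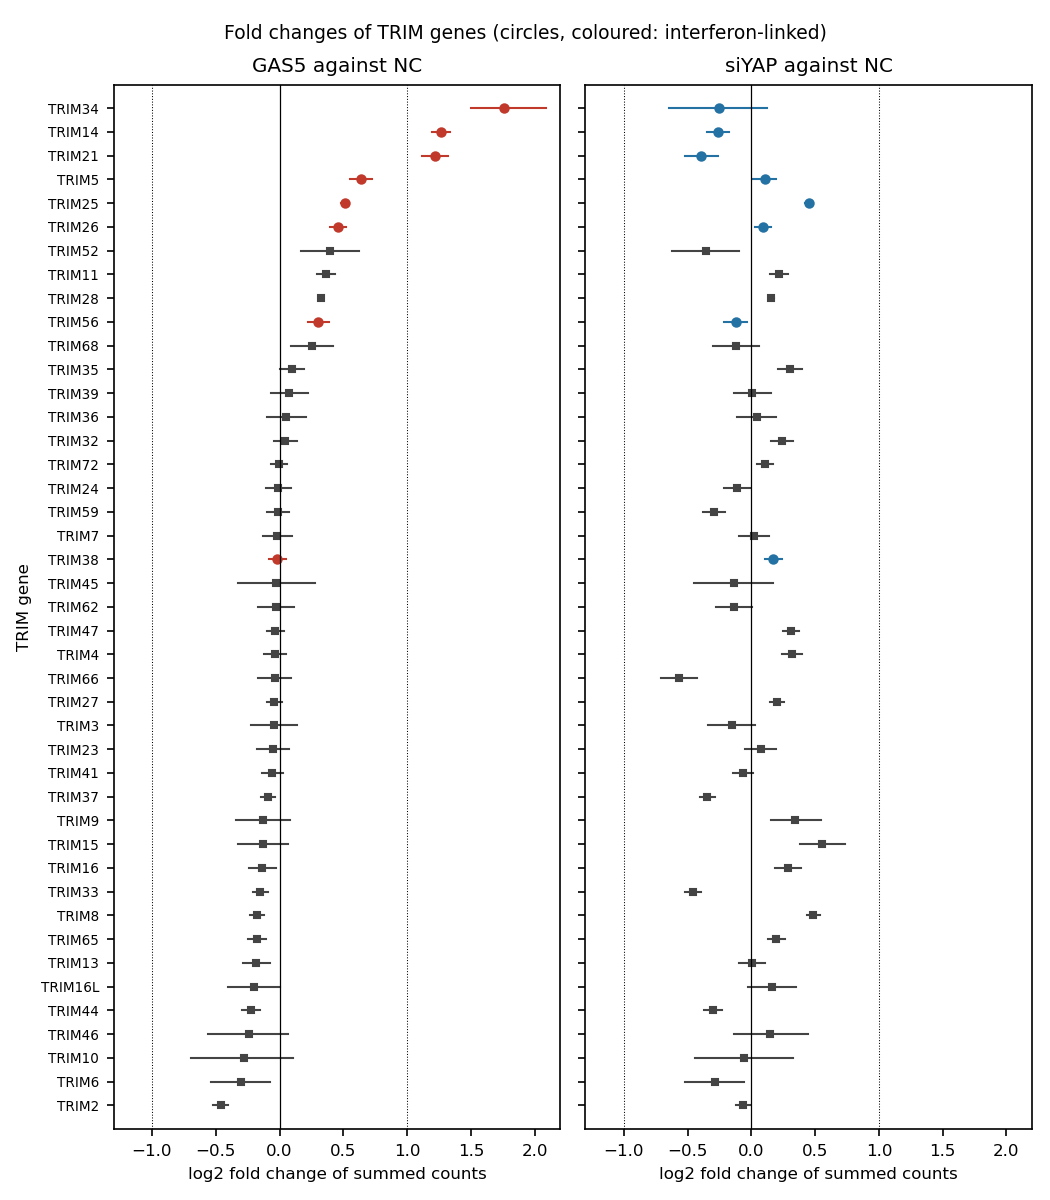
Log2 fold changes of summed counts of the 43 TRIM genes in GAS5 (left) and siYAP (right) against NC, ordered by the GAS5 value; horizontal lines are 95% Wilson intervals that cover counting error only, dotted lines mark 2-fold, and coloured circles are interferon-linked genes. TRIM34, TRIM14 and TRIM21 lie beyond the 2-fold line on the left, and no gene does on the right.

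The TRIM genes that passed were also grouped by domain. Of 31 genes listed with both a RING finger and a PRY-SPRY domain, not counting the microtubule-binding genes given below, 21 passed. Among these, 2 rose by 2-fold in GAS5 (TRIM21 and TRIM34), where 0.798% of all genes did. The medians of the 21 were -0.02 in GAS5 and 0.10 in siYAP. TRIM14 and TRIM16 also end in this domain but were listed with the genes without a RING finger. All 3 genes that rose carry it, but so do many of the 43 that passed, 21 of them on the PRY-SPRY list alone. The domain therefore does not set the 3 apart. The 3 of 8 genes without a C-terminal domain that passed had medians of 0.30 and -0.12, both the value of TRIM56, which is -1.10 in GAS5 with Ensembl transcripts alone. For the NHL genes (3 of 4 passed) the medians were -0.04 and -0.07, and for the microtubule-binding genes with a COS box (3 of 4) they were -0.13 and 0.15. The genes with a MATH, ARF or filamin domain (3 of 3) had -0.05 and -0.14, and the transmembrane pair -0.10 and -0.14. The 3 MuRF genes, ligases of striated muscle, all stayed under the minimum. Of the 5 genes without a RING finger 4 passed and 1 rose in GAS5, which was TRIM14, with medians of -0.09 and -0.28.

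Set directly against each other, without the NC values that both comparisons above share, GAS5 and siYAP differed by 2-fold in 3 TRIM genes, all higher in GAS5 (6.98%, all genes 1.27%), and in 0 that were lower (all genes 1.03%). TRIM34 differed by 2.01, TRIM21 by 1.61 and TRIM14 by 1.53 on the log2 scale. At 0.5 on that scale, 6 were higher in GAS5 (14.0%, all genes 9.29%), with TRIM52 (0.74), TRIM5 (0.53) and TRIM66 (0.53) as the others. Lower in GAS5 were 2 (4.65%, all genes 9.06%), TRIM15 (-0.68) and TRIM8 (-0.66). The median over the 43 was 0.01, beside -0.0015 over all genes, and over the interferon-linked genes it was 0.48.

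Single transcripts were compared in the same way. Of the TRIM transcripts, 78 had a mean of at least 50. In GAS5, 7 of them were higher by 2-fold (8.97%, all transcripts 4.47%) and 1 was lower (1.28%, all transcripts 4.3%). The 7 included ENST00000253024 and ENST00000341753 of TRIM28 and TCONS_00128618 of TRIM56, whose gene sums stayed within 2-fold. The lower one was ENST00000306085 of TRIM56. In siYAP, 4 were higher (5.13%, all transcripts 4.18%) and 2 lower (2.56%, all transcripts 5.38%). Directly compared, 6 were higher in GAS5 than in siYAP (7.69%, all transcripts 6.23%) and 0 lower (all transcripts 4.96%). In 5 of the 43 genes (TRIM34, TRIM56, TRIM66, TRIM46 and TRIM6) a transcript's share of its gene differed by 20 percentage points or more between groups (11.6%, all genes 13.1%). The counts of transcripts of a gene are estimates that divide shared reads, so such shares rest on the authors' assignment.

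For TRIM21, the transcript ENST00000254436 held 99.8% of the gene's counts in GAS5, with 571, 1327 and 435 scaled counts. Both forms of TRIM14 rose in GAS5, ENST00000341469 from 1149 to 2732 and ENST00000375098 from 74.6 to 206 scaled counts, with 956 and 63.4 in siYAP. For TRIM25, ENST00000316881 held 80.2% of the counts in NC against 80.5% in GAS5 and 82.8% in siYAP, and its log2 fold changes of 0.52 and 0.50 were near those of the sum. The sums of these genes therefore did not rest on a change of transcript. TRIM34 differed: ENST00000429814 had 21.3 scaled counts in NC against 211 in GAS5 and 50.9 in siYAP, while an assembled transcript that held 65.1% of the gene in NC was listed at 0 in both treated groups. With Ensembl transcripts alone, the log2 fold change of TRIM34 was 3.19 in GAS5 and 1.17 in siYAP.

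In TRIM56, counts stood on an Ensembl transcript in NC and were divided with an assembled one in both treated groups. The Ensembl transcript ENST00000306085 had 1069 scaled counts in NC against 499 in GAS5 and 475 in siYAP, a fall by 1.10 and by 1.17 on the log2 scale. An assembled transcript, TCONS_00128618, was listed at 0 in NC and had 824 scaled counts in GAS5 and 501 in siYAP, 62.1% and 50.7% of the gene. With Ensembl transcripts alone TRIM56 would be lower in GAS5, at -1.10, instead of at 0.30. In TRIM66 the transcript ENST00000299550 had 230.3 scaled counts in NC against 119 in GAS5 and 32.5 in siYAP, with log2 fold changes of -0.95 and -2.75. The transcript ENST00000402157 of TRIM66 had 168, 272 and 177 scaled counts and did not share this order. In TRIM26 the minor transcript ENST00000453195 had 87.8, 146 and 248.9 scaled counts, with 0.72 in GAS5 and 1.48 in siYAP. For TRIM28, most counts lay in 2 assembled transcripts, with 69.7% and 25.3% of the gene in NC. Its Ensembl transcript ENST00000253024 had 800.0, 2151 and 1895 scaled counts, and the minor ENST00000341753 had 36.5, 166 and 25.3.

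**Figure D4:**
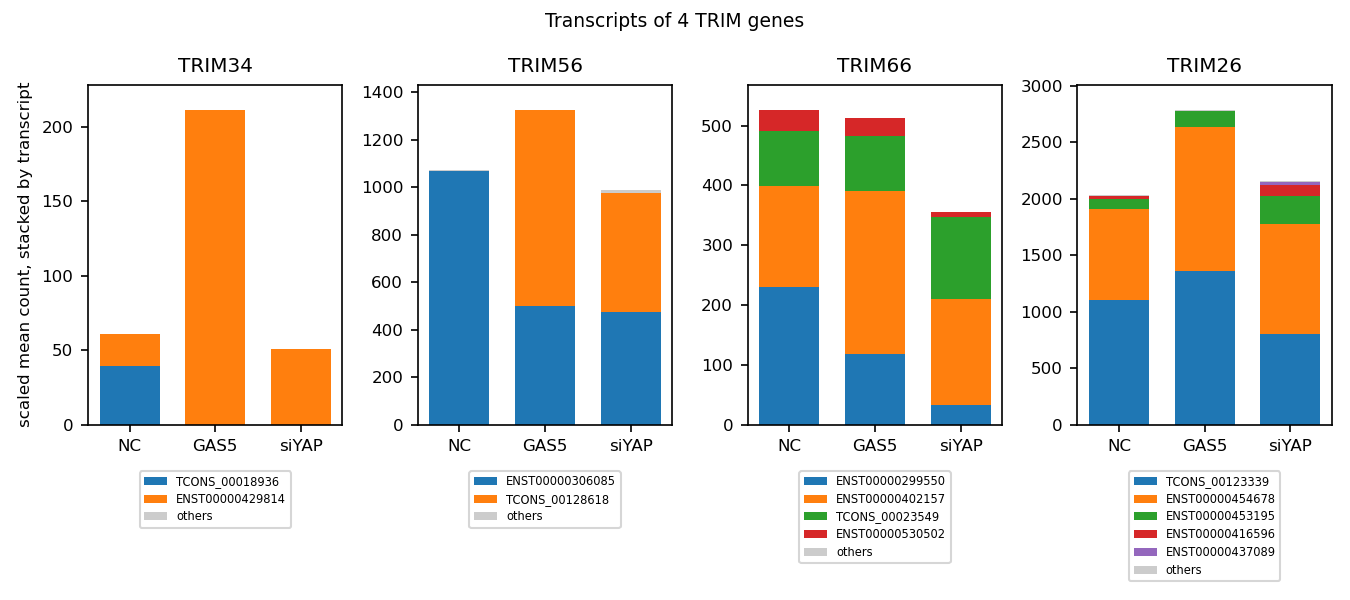
Scaled mean counts of TRIM34, TRIM56, TRIM66 and TRIM26 in NC, GAS5 and siYAP, stacked by transcript; each bar is 1 mean of 2 libraries, colours are transcripts with at least 20 scaled counts in a group, and grey is the rest. In TRIM56 the Ensembl transcript fills the NC bar, and in GAS5 and siYAP an assembled transcript takes 62.1% and 50.7% of the counts.

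The genes that work with TRIM proteins were described from further lists. RIG-I, encoded by DDX58 and activated by TRIM25, had 513 scaled counts in NC against 2155 in GAS5 and 509 in siYAP, a log2 fold change of 2.07 in GAS5 and -0.01 in siYAP. IFIH1, the related sensor MDA5, had 236, 1006 and 201 scaled counts, with 2.08 and -0.23. These were the 2 of 11 genes of the RIG-I pathway that rose in GAS5 (all genes 0.798%), and 0 of the 11 fell (all genes 0.269%). MAVS, the adaptor to which TRIM14 binds, had 10370, 8061 and 10554 scaled counts (-0.36 and 0.03), and IRF3 and TBK1 had values of 0.01 and 0.10 in GAS5. The sensors were thus high in GAS5, while MAVS, IRF3 and TBK1 were not. IKBKE, also on the list, had 0.35 in GAS5 and 0.48 in siYAP. The median over the list was 0.10 in GAS5 and -0.01 in siYAP.

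ISG15, a ubiquitin-like protein that can be attached to TRIM25, had 1608 scaled counts in NC against 11925 in GAS5 and 2015 in siYAP. That is 2.89 on the log2 scale in GAS5 and 0.32 in siYAP. Of the 5 genes of ISG15 conjugation 4 passed the minimum and 3 rose in GAS5 (all genes 0.798%). Besides ISG15 these were USP18, which removes ISG15 (1.81), and its ligase HERC5 (1.21). UBE2L6, its E2 enzyme, stood at 0.54. None fell in either group (all genes 0.269% in GAS5 and 0.462% in siYAP). In siYAP 0 of the 4 rose (all genes 0.344%), and the median was -0.05. PML, a TRIM protein under another name that builds nuclear bodies, had 1843, 3512 and 2225 scaled counts, with 0.93 in GAS5 and 0.27 in siYAP, while MID1 and MID2 had -0.13 and 0.06 in GAS5.

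Of the 9 partners of TRIM28 in repression (such as SETDB1, which methylates histone H3, and the heterochromatin proteins CBX1, CBX3 and CBX5), 0 rose or fell by 2-fold in either group, where in GAS5 0.798% of all genes rose and 0.269% fell and in siYAP 0.344% rose and 0.462% fell. Their medians were -0.13 in GAS5 and -0.10 in siYAP, and their values in GAS5 ranged from -0.26 to 0.09. Ubiquitin itself and the E1 and E2 enzymes that feed ligases also held no gene past 2-fold in GAS5 or siYAP (0 of 15), with medians of 0.07 and 0.04. UBE2D1, an E2 enzyme of many RING ligases, had the lowest value of these in siYAP, with 468, 487 and 319 scaled counts and -0.55.

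**Figure D5:**
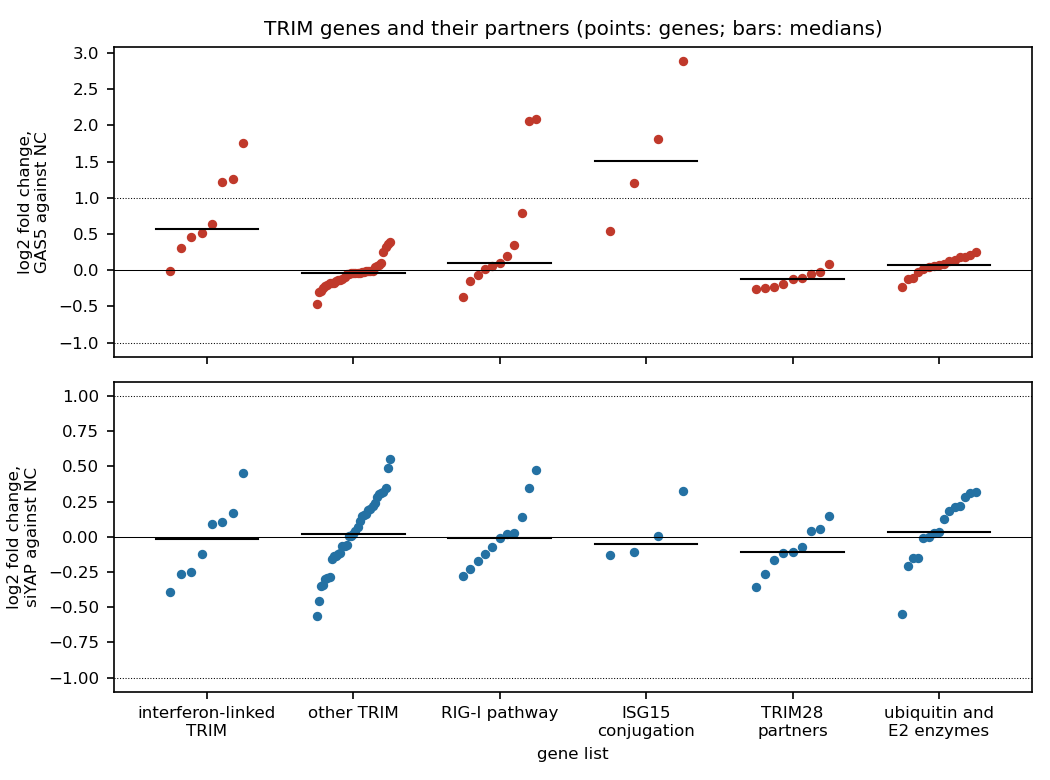
Log2 fold changes against NC in GAS5 (top) and siYAP (bottom) of TRIM genes and of 4 lists of genes that work with them; each point is a gene whose mean count reached 50, black bars are medians, and dotted lines mark 2-fold. In GAS5 the interferon-linked TRIM genes, RIG-I pathway and ISG15 conjugation lists hold points above the 2-fold line, and no list does in siYAP.

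Near the minimum, TRIM10 (mean 50.3) and TRIM45 (mean 84.5) were just inside and TRIM73 (47.1) and TRIM22 (22.1) just outside. TRIM10 had 57.0, 46.5 and 54.6 scaled counts and TRIM45 had 92.0, 90.3 and 83.6 in NC, GAS5 and siYAP. TRIM73 had 55.3, 44.5 and 48.1, and only 18.6% of the 50-base stretches of its transcript occur in no other gene. Under the minimum also stood TRIM29, which marks squamous epithelium, at 17.0, 8.66 and 25.7 scaled counts, and the muscle gene TRIM54 at 15.5, 16.8 and 17.7. The remaining genes above 0 had means under 10, apart from TRIM69. Those listed at 0 in every group included TRIM63, the muscle ligase MuRF1, TRIM42, TRIM58 and the copies TRIM43B, TRIM49, TRIM49B, TRIM49C, TRIM64, TRIM64B and TRIM64C. A listed 0 does not show absence, as the depth of each library behind it was not known.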

How the data were processed

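The authors made strand-specific libraries from RNA of HCT116 cells, 2 per group in NC, GAS5 and siYAP, and no label says that these came from separate cultures. The deposited tables, 1 per treatment with the same NC values, list 92866 transcripts. Their expected counts are estimated counts per transcript, which the authors deposited as unscaled means of a group's libraries. They also hold FPKM, which the authors scaled by transcript length and library size and averaged alike, with 0 replaced by 0.001. The submitters' processing notes name TopHat2 2.1.1; the counting tool and genome build are not given in the sources used here. The authors' columns of log2 ratio, p-value, FDR and significance were not used.

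Tables were joined by transcript, with upper-case symbols taken from the siYAP table. Transcripts without a symbol (339, with 0.209% of the counts) entered no gene. Gene sums were scaled by TMM (edgeR 4.0.16, R 4.3.3) over the 3 means, and a prior count of 2 entered each log2 fold change. The planned edgeR quasi-likelihood test needs values per library and could not be run. Every count was a multiple of 0.005, as rounded means of 2 values are. Size factors of DESeq2 1.42.0 were 1 alternative. Python 3.11.15 with numpy 2.4.6, pandas 2.3.3, scipy 1.17.1 and matplotlib 3.10.9 did the rest, and the steps were tested on simulated data. Gene coordinates come from GENCODE 29 (GRCh38), matched by identifier for 264 of 264 Ensembl transcripts of TRIM genes; the other 40 were assembled from reads. Promoters are RefSeq windows of GRCh38.p14. Uniqueness is the share of 50-base stretches of a transcript found in transcripts of no other gene.

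Named TRIM genes were those at 0.5 or more in size on the log2 scale, the 5 with the highest FPKM in NC, the interferon-linked and PHD-bromodomain lists, and the 2 nearest the minimum on each side; others were named after their values were seen. The members and lists were chosen with earlier results of these data known. Alternatives changed the scaling, prior count, minimum, unit and transcripts used.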

Additional observations from a re-analysis of the deposited data

How the results depend on the processing

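No paired analysis was possible because each deposited value is already averaged over a group. The replicate block, leaving out a library, and the DESeq2 and edgeR tests could not be run for that reason. Of the alternative values for counts and medians of the TRIM genes 73 stayed within the limits set and 10 moved, and of those for single genes 194 stayed and 24 moved. TRIM56 in GAS5 and TRIM34 in siYAP, both within 2-fold by gene sums, turned direction and passed 2-fold with Ensembl transcripts only. The count higher in GAS5 was 2 with a minimum of 200, 4 with no minimum or Ensembl transcripts only, and 3 under the other alternatives. With Ensembl transcripts only, the count lower in GAS5 became 1 (TRIM56, at -1.10), that higher in siYAP 1 (TRIM34, at 1.17) and that lower in siYAP 2 (TRIM56 at -1.16 and TRIM66), because assembled transcripts were left out. As a ratio of summed FPKM, the count lower in siYAP became 1 (TRIM66, -1.06). With no minimum, 1 TRIM gene was higher and 2 were lower in siYAP, all with means under 50, and the median of the interferon-linked genes became 0.49 in GAS5 and -0.19 in siYAP. With a minimum of 200, and without TRIM34 (an alternative chosen after seeing the data, as was adding TRIM6-TRIM34 to TRIM34), that median in GAS5 was 0.51. For TRIM28, Ensembl transcripts alone gave 1.09 in GAS5 and 0.80 in siYAP; the cause of values that moved by unit was not tested. Across scalings, the sign of TRIM7, TRIM13, TRIM36 and TRIM39 in siYAP changed, with values near 0. Depth limits the genes under the minimum, and 1 mean per group limits every comparison.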

Other observations

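Genes named after TRIM but outside the rule were also read. TRIML2, a TRIM-like gene, had 134 scaled counts in NC against 112 in GAS5 and 95.9 in siYAP. The read-through gene TRIM39-RPP21 had 3.46, 9.20 and 6.03 scaled counts, while TRIML1, TRIM49D1 and TRIM49D2 were listed at 0 in every group. ZC3HAV1, the antiviral zinc finger protein with which TRIM25 works, had 2343, 4065 and 2373 scaled counts, or 0.79 in GAS5 and 0.02 in siYAP on the log2 scale. RNF135, a ligase of RIG-I outside the family, had 222, 255 and 283 scaled counts, with 0.19 and 0.35. COL1A1, on the fibroblast list, had 379, 602 and 578 scaled counts with COL1A2 at or near 0.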
